A study of Komagataella pastoris with 60 samples.

Results

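This is an account of 100 genes of the yeast *Pichia pastoris* whose mRNA was higher than in the wild type (wt) in 4 strains that each lack 1 ribosomal protein gene. The genes were chosen by their mRNA. For each gene with a mean of 5 or more CPM (reads per 1000000 reads on host genes) over the 30 mRNA libraries, the log2 ratio of CPM plus 1 in a deletion strain to that in wt was taken at each time and averaged over the 3 times. The genes were ranked by the smallest of their 4 strain averages, and the first 100 of the 5104 genes that could be ranked, out of 5319 host genes in the files, are the members. Pipas_c157_0001 and Pipas_c157_0002 were left out by the rule. The mRNA values against wt are therefore a description of the choice and carry no test, whereas mRNA bound to ribosomes (RNC-mRNA) did not enter it and was tested.

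All strains were GS115 expressing the heterologous phytase Phy from the methanol-inducible *AOX1* promoter, and were grown in methanol medium. The groups were wt, *rpl38*∆, *rpl9a*∆, *rps7*∆ and *rps25*∆, each sampled at 24, 48 and 72 h of fermentation with 2 replicates in both assays, which gives 60 libraries. The deletion strains had in addition carried and lost a marker cassette with the *cre* gene, and the number of independent clones behind each strain is not stated in the sources used. The mRNA and RNC-mRNA libraries were made from aliquots of the same cultures, so that a difference between cultures is shared by both assays, and all 4 strains were compared with the same 6 wt libraries of an assay.

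Ribosomal proteins hold the ribosomal RNA of the large and the small subunit in shape and take part in the assembly of the subunits. Rpl38 and Rpl9 belong to the large subunit, Rps7 and Rps25 to the small subunit. In yeasts many ribosomal proteins can be lost without loss of viability, and such mutants are known for slower growth and for too few or misassembled subunits. Ribosome-nascent chain complexes (RNCs) are ribosomes caught on an mRNA with the growing peptide still attached, so RNC-mRNA is the part of the mRNA that is occupied by ribosomes. The files give the members by locus identifier. None of the 5319 identifiers matched the gene table used here, which left 0 members with a name, and no function is stated for them.

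The libraries held 2970406 to 15476958 host gene reads in mRNA and 1508702 to 13532265 in RNC-mRNA. Each deleted gene had at most 3 to 16 mRNA reads in any library of its own strain and at least 22 to 396 in any other mRNA library, as labelled. In RNC-mRNA it had at most 10 to 72 reads in its own strain and at least 146 to 740 in any other library. RPL9A had at most 9.42 CPM in every *rpl9a*∆ library of RNC-mRNA and at least 137 in all others. The library of *rpl9a*∆ RNC-mRNA at 72 h, replicate 2, stood apart. Over the members, its levels relative to the mean of the assay had a higher correlation of -0.46 with either mRNA library of *rpl9a*∆ at 72 h, whereas the other 29 RNC-mRNA libraries had 0.575 to 0.958, as a description over genes that share these libraries. Several values that rest on it are given with and without it. All other *rpl9a*∆ values in RNC-mRNA that cover 72 h include it unless stated.

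In wt the 100 members took 1.04 to 1.36% of the host gene reads in mRNA. They took 3.003 to 8.85% in *rpl38*∆ and 3.16 to 6.09% in *rps7*∆. The range was 2.27 to 6.25% in *rps25*∆ and widest in *rpl9a*∆, from 1.39 to 9.09%, so that no deletion strain library overlapped wt. The 10 members with the highest mean mRNA CPM, which are not the first 10 by the rule, carried a large part of these reads. Without them the other members took 0.602 to 0.690% in wt, 2.03 to 3.14% in *rps7*∆, 1.33 to 3.03% in *rps25*∆ and 1.4996 to 4.70% in *rpl38*∆. In *rpl9a*∆ they took 0.679 to 4.35%, which reaches down into the wt range.

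**Figure D1:**
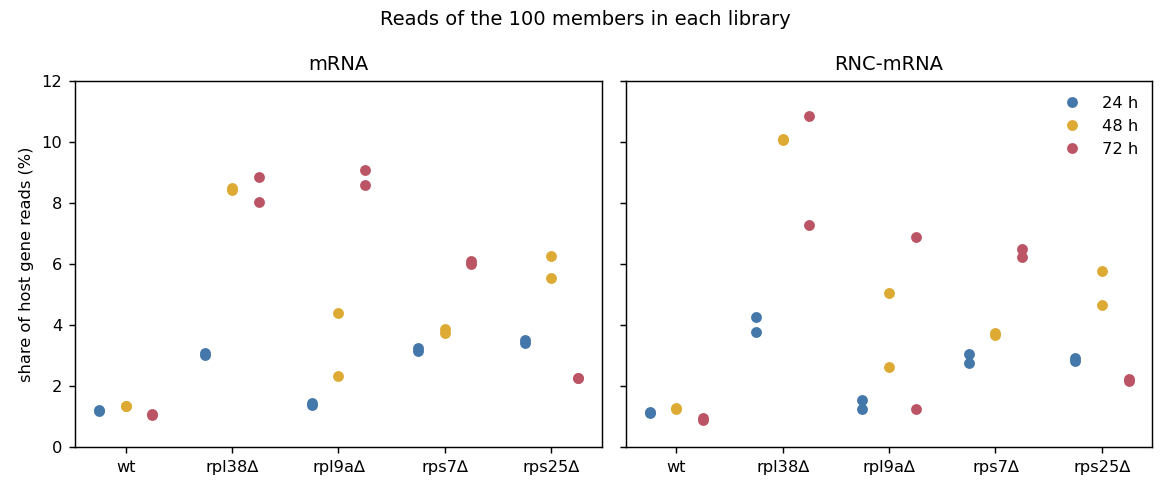
Share of host gene reads taken by the 100 members (%, y axis) in each library of mRNA (left) and RNC-mRNA (right), by strain, with a point per library coloured by time. The wt points lie between 0.871 and 1.36% in both assays, and in RNC-mRNA the *rpl9a*∆ libraries at 72 h lie apart at 1.26 and 6.90%.

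The same share in RNC-mRNA was 0.871 to 1.27% in wt. Among the deletion strains *rpl38*∆ had the highest share, 3.76 to 10.9%, and *rps7*∆ had 2.76 to 6.50%. In *rps25*∆ it was 2.167 to 5.78% and in *rpl9a*∆ 1.25 to 6.90%. The lowest *rpl9a*∆ libraries, 1.25% at 24 h and 1.26% in the library that stood apart, lay within the wt range, and all libraries of the other 3 deletion strains lay above it.

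By time, the members' median mRNA log2 ratio to wt in *rpl9a*∆ was 0.01, 1.20 and 1.98 at the 3 times. At the first of them 51 of the members were above wt and 49 below it, where 31.3% of all ranked genes were above. In *rpl38*∆ the median ratio was 1.08, 1.87 and 2.09 in that order, and in *rps7*∆ it was 1.22, 1.79 and 1.96. In *rps25*∆ it was 1.62, 1.75 and 1.01, lowest at the last time. All 100 members were above wt in *rpl38*∆, *rps7*∆ and *rps25*∆ at 48 h, against 58.7, 81.1 and 62.3% of all ranked genes. These counts restate the rule and nothing is read from them.

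**Figure D2:**
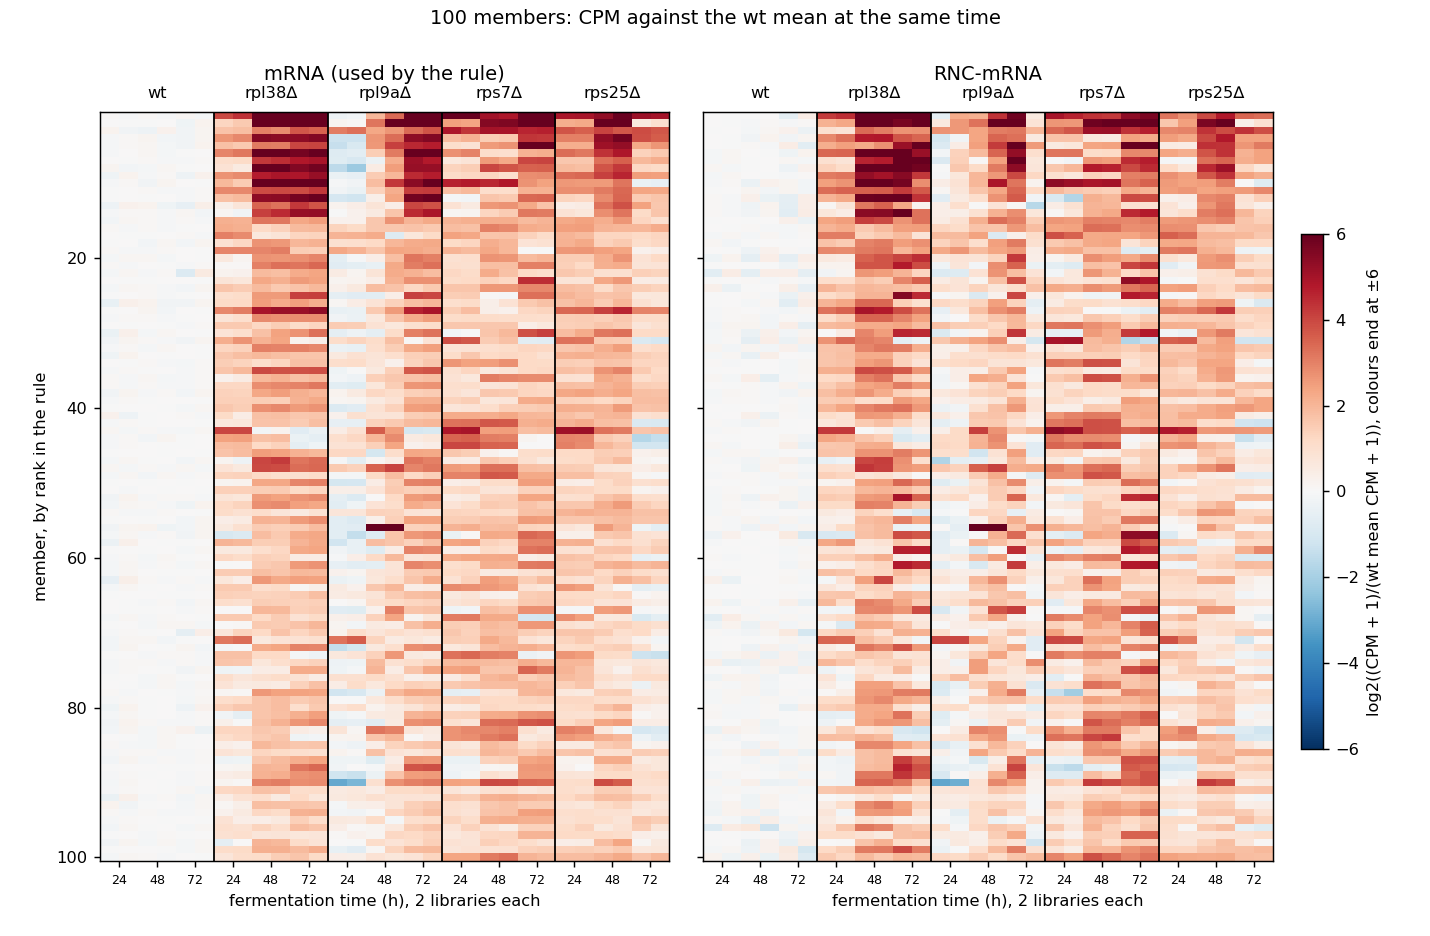
Log2 ratio of CPM plus 1 in each library to the wt mean at the same time (colour, ending at ±6) for the 100 members in the order of the rule (y axis), in mRNA, which the rule used, and in RNC-mRNA, with 2 libraries for each strain and time (x axis). The *rpl9a*∆ columns at 24 h are pale, with a median ratio of 0.01 in mRNA, and the first ranks at 48 and 72 h in *rpl38*∆ are darkest.

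The smallest strain average ran from 3.32 for the first member to 0.75 for the last. It was over 1 in 36 members and over 2 in 6, and it came from *rpl9a*∆ in 59 members, *rps25*∆ in 20, *rps7*∆ in 17 and *rpl38*∆ in 4. The strain with the highest average was *rpl38*∆ in 50 members and *rps7*∆ in 42. No gap marked the edge of the set. Just inside it were Pipas_chr2-1_0467, Pipas_chr3_0797 and Pipas_chr3_0884, with smallest averages of 0.750, 0.749 and 0.747, and just outside Pipas_chr2-2_0327, Pipas_chr1-1_0332 and Pipas_chr1-1_0252, with 0.744, 0.744 and 0.740. Pipas_chr2-2_0327 carries the number next to that of the RPS25 gene, Pipas_chr2-2_0326. Above wt in all 12 mRNA comparisons were 38 members, where 4.66% of all ranked genes were, 38 more were above wt in 11, and the fewest for any member was 8.

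The ratio of CPM moved with the library composition. Over all ranked genes the median strain average was 0.51 in *rps7*∆ and 0.21 in *rps25*∆, and 0.05 and -0.07 in *rpl38*∆ and *rpl9a*∆. With trimmed mean (TMM) scaling, which sets the bulk of genes to no change, these medians were 0.00 to 0.04 and the member medians were 1.20, 1.14, 1.63 and 1.11 in the same order, against 1.68, 1.34, 1.66 and 1.02 by CPM. All 100 members kept a smallest average above 0 on that scale, the lowest being 0.29, and 71 of them would have been chosen by it.

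Levels of the members and of all ranked genes were compared per length. Among genes listed with 1 segment, where the listed length fits the gene, 93 members had a median of 45.9 reads per kilobase and per 1000000 reads (RPKM) in wt mRNA, and all 4705 ranked genes of this kind had 53.8. In the deletion strains the medians were 185 and 65.9 RPKM. They were shorter, with a median length of 908 bp against 1241 bp, and 27 of them, 29.0%, were under 600 bp, against 13.7% of all. By identifier, 30 lay on chromosome 1, 27 on chromosome 2, 20 on chromosome 3 and 21 on chromosome 4, which is 1.65 to 2.20% of the ranked genes of each. There were 5 pairs with neighbouring numbers, among them Pipas_chr1-1_0157 with Pipas_chr1-1_0158 and Pipas_chr4_0351 with Pipas_chr4_0352. The methods do not say whether reads were counted by strand, so the reads of genes that overlap could not be told apart.

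No ribosomal protein gene and no chaperone gene was a member, where 100 of all 5104 ranked genes were. At that share few genes of these lists would be members, so nothing is read from their absence. Of the ribosomal protein genes of the large subunit (49) and the small subunit (37), none had a smallest average above 0. Of 55 chaperone genes, which assist protein folding, 5 did, and of all ranked genes 33.1% did. These values come from the rule and carry no test. The subunit lists include the deleted genes, which are low in their own strains and stay in the counts below. In RNC-mRNA, tested as described next, all 49 large subunit genes were lower than in wt in *rpl38*∆ (median log2 fold change -1.31) and 47 in *rps7*∆ (-1.82), and 3 were lower in *rpl9a*∆ and 5 in *rps25*∆, where 3 were higher. Of the small subunit genes 36, 1, 32 and 2 were lower in *rpl38*∆, *rpl9a*∆, *rps7*∆ and *rps25*∆, and 5 were higher in *rps25*∆. Of the chaperone genes 40, 18, 40 and 23 were lower and 2, 2, 4 and 3 higher in the same order. Of all genes tested, 28, 11.8, 29.6 and 20.4% were lower and 27.4, 14.5, 32 and 23.8% higher in these strains, so the lower counts of both subunits in *rpl9a*∆ and *rps25*∆ were below the share of all genes.

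The question left to RNC-mRNA was whether the members were also higher there. They were, in each strain. On the mean of the 3 times, 93 of the 100 members were higher than in wt in *rpl38*∆, where 27.4% of all 5209 genes tested were. In *rpl9a*∆ 74 were higher, against 14.5% of all genes, in *rps7*∆ 77, against 32%, and in *rps25*∆ 66, against 23.8%. No member was lower in any of the 4 comparisons, also at an unadjusted p under 0.05 and with DESeq2, where 28, 11.8, 29.6 and 20.4% of all genes were lower. The calls are from edgeR's quasi-likelihood test with TMM scaling and Benjamini-Hochberg adjustment over all genes at 0.05. The median log2 fold change of the members was 1.66 in *rpl38*∆ and 1.08 in *rps7*∆, and 0.97 and 0.92 in *rps25*∆ and *rpl9a*∆. That of all genes was 0.01, 0.06, 0.07 and 0.05 in this order.

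**Figure D3:**
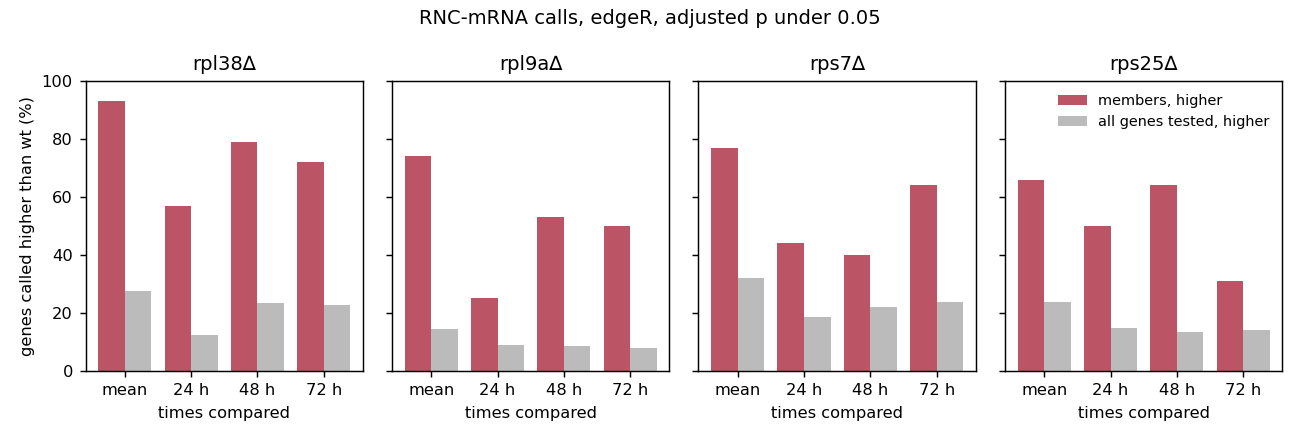
Share of genes called higher than wt in RNC-mRNA (%, y axis) among the 100 members (red) and among all genes tested (grey), on the mean of the 3 times and at each time, by deletion strain. The member bars stand at 93, 74, 77 and 66% on the mean of the times, above grey bars of 27.4, 14.5, 32 and 23.8%.

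In all 4 strains 47 members were called higher, against 5.3% of all genes, in 3 strains 23 were, against 8.60%, in 2 strains 23, against 13.8%, and in 1 strain 7, against 23.2%. No member was called in none of the strains, where 49.1% of all genes were not. The first 10 members were called in every strain, whereas of the 50 members ranked 51 to 100, 15 were called in all 4. Without any scaling beyond the library size the median of all genes moved up by 0.14 to 0.79 on the log2 scale, and the members called higher were 98, 84, 97 and 90, with 74 in all 4, but 44.3, 23.6, 72.1 and 50.7% of all genes were then called higher as well. Of all genes called in a comparison, 49.4 to 55.1% were higher with TMM and 73.8 to 88.0% were with the library size alone.

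The *rpl9a*∆ result moved with the libraries of 72 h. On the mean of the times the members' median log2 fold change was 1.06 without the library that stood apart. Without its partner, replicate 1, it was 0.68, and with both it was 0.92. That of all genes was 0.005, 0.04 and 0.05 in this order. The share of all genes called higher rose when either library was left out. Fitted with the *rpl9a*∆ and wt libraries alone, 47 members were higher.

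By level, all 6 *rpl38*∆ libraries were above all 6 wt libraries in CPM of RNC-mRNA for 49 members, against 7.64% of all genes tested. This held for 56 members in *rps7*∆ and 42 in *rps25*∆, against 25.3 and 19.3%, and for 11 in *rpl9a*∆, against 1.46%. Without the library that stood apart it held for 20 members in *rpl9a*∆, against 2.5% of all genes. In 10 members all 24 libraries of the deletion strains were above all 6 of wt, against 0.557% of all genes, and among these were Pipas_chr1-1_0158, Pipas_chr4_0003 and Pipas_chr3_0884, the second, the third and the last by the rule.

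At single times, with 2 libraries a group, fewer members passed. In *rpl38*∆ 57, 79 and 72 members were higher at 24, 48 and 72 h, against 12.4, 23.4 and 22.6% of all genes. None was lower at 24 and 48 h, also at an unadjusted p under 0.05 and with DESeq2, where 12.9 and 22.8% of all genes were, and 4 were at 72 h, against 23.3%. The median log2 fold change of the members was 1.32, 1.99 and 1.83.

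In *rpl9a*∆ 25, 53 and 50 members were higher at the 3 times, against 8.75, 8.45 and 7.91% of all genes, with medians of 0.54, 1.24 and 1.28. Lower were 1, 0 and 2, against 9.12, 7.74 and 6.3%, and at 48 h none was at an unadjusted p under 0.05 or with DESeq2. These counts moved by more than 1.5 times with single libraries. At 24 h they were 16 and 15 without wt replicates 1 and 2, and 16 and 15 without *rpl9a*∆ replicates 1 and 2. At 48 h they were 30 and 26 without wt replicates 1 and 2. At 72 h the count was lower without either wt replicate. The members' median log2 fold change at 72 h was 0.37 without *rpl9a*∆ replicate 1 and 1.55 without replicate 2. That of all genes was 0.07 and 0.01, and more of them were called higher than with both replicates. Fitted with the libraries of *rpl9a*∆ and wt at that time alone, 48, 10 and 0 members were higher.

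In *rps7*∆ 44, 40 and 64 members were higher at the 3 times, against 18.6, 22 and 23.9% of all genes, and 2, 3 and 6 were lower, against 20.5, 23 and 23.5%. With the library size alone 85 were higher at 48 h, but the log2 fold changes of all genes then moved up by a median of 1.13. With the libraries of *rps7*∆ and wt at 48 h alone 70 were higher. The share of all genes called in these fits is not given, so the rises were not set against it. In *rps25*∆ 50, 64 and 31 members were higher, against 14.7, 13.5 and 14%, and 0, 0 and 6 were lower, against 13.5, 13.9 and 14.5%. At 24 and 48 h 1 member each was lower at an unadjusted p under 0.05, and 1 each was called lower by DESeq2. At 48 h 40 were higher without wt replicate 1, and at 72 h 20 were without *rps25*∆ replicate 2 and 19 without wt replicate 1. The median log2 fold change in *rps25*∆ was 1.003, 1.45 and 0.63. Whether the times differed from each other within a strain was not tested.

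Side by side on the scale of the rule, the members' median log2 ratio of CPM plus 1 was 1.66 in mRNA and 1.93 in RNC-mRNA in *rpl38*∆, 1.02 and 1.03 in *rpl9a*∆, 1.68 and 1.83 in *rps7*∆, and 1.34 and 1.23 in *rps25*∆. All ranked genes had medians of 0.05 and 0.31, -0.07 and 0.19, 0.51 and 0.82, and 0.21 and 0.41 in the same order. On this scale, without TMM, all 100 members had an RNC-mRNA ratio above 0 in all 4 strains, where 51% of all ranked genes did. In the edgeR fit with TMM 99, 99, 97 and 99 members had a log2 fold change above 0 in the same order of strains. The lowest values were -0.69, -0.08, -0.51 and -0.25. The share of ribosome-bound mRNA is not independent of the rule, because the mRNA chose the members, and was not tested.

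**Figure D4:**
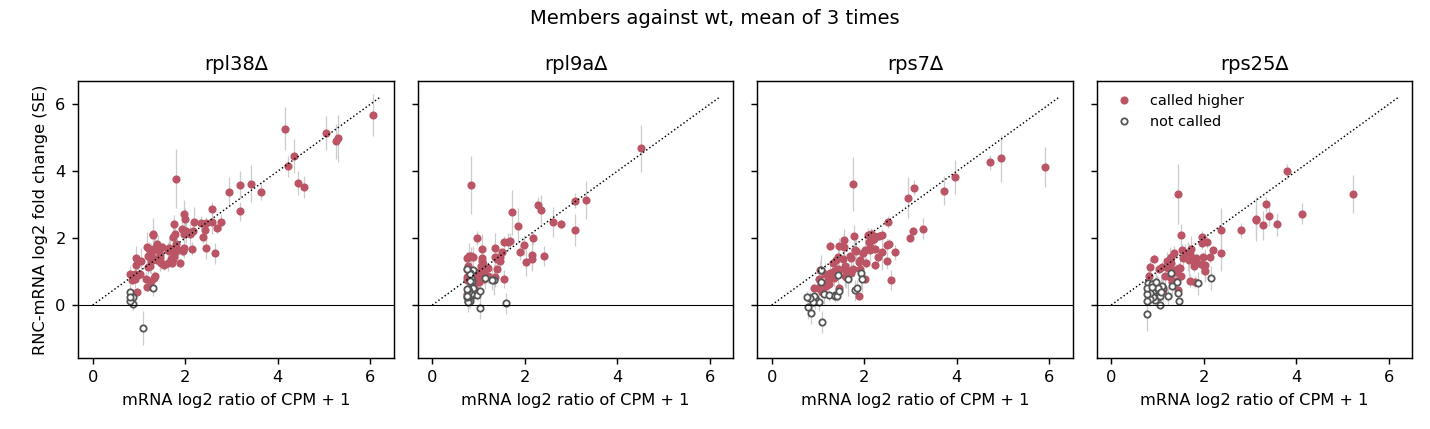
RNC-mRNA log2 fold change of each member with its standard error (y axis, edgeR, mean of the 3 times) against its mRNA log2 ratio of CPM plus 1 from the rule (x axis), 1 panel per deletion strain, with the line of equal values dotted. Filled points are the 93, 74, 77 and 66 members called higher, and the open points lie mostly at mRNA ratios below 2.

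The first member, Pipas_chr1-4_0481, was at 6.79 to 9.68 CPM in the 6 wt mRNA libraries. In *rpl9a*∆ it had 6.67 and 7.28 CPM at 24 h, which lies at the wt level, then 39.2 and 106 at 48 h and 1213 and 1555 at 72 h. Its mRNA was between 145 and 1632 CPM in *rpl38*∆, between 288 and 807 in *rps7*∆ and between 272 and 606 in *rps25*∆. In RNC-mRNA it had 22.2, 24.6 and 46.4 CPM (lowest, median, highest) in wt and 443, 2546 and 5130 in *rpl38*∆. In *rpl9a*∆ it had 15.05, 115 and 2029 CPM, so that this strain overlapped wt and the other 3 did not. The log2 fold change in *rpl38*∆, *rpl9a*∆, *rps7*∆ and *rps25*∆ was 5.68 ± 0.64, 3.14 ± 0.58, 4.12 ± 0.60 and 3.32 ± 0.58 (SE), with edgeR adjusted p of 4.12e-07, 0.000434, 5.02e-06 and 0.000109.

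Pipas_chr1-1_0158 was at 18.6 to 35.4 CPM in wt mRNA and reached 3809 to 4288 in *rpl38*∆, *rps7*∆ and *rpl9a*∆ and 1931 in *rps25*∆. In *rps25*∆ the high values were those of 48 h, 1251 and 1931 CPM, and it had fallen back to 45.9 and 61.0 at 72 h. In RNC-mRNA the same strain had 1235 and 1739 CPM at 48 h and 64.2 and 96.8 at 72 h, against 22.5 to 53.1 in wt. In *rpl9a*∆ the replicates at 48 h were far apart in both assays, at 180 and 3809 CPM in mRNA and 230 and 6272 in RNC-mRNA. Its RNC-mRNA log2 fold change was 4.98 ± 0.71, 4.68 ± 0.70, 4.38 ± 0.69 and 2.57 ± 0.64 (SE) in *rpl38*∆, *rpl9a*∆, *rps7*∆ and *rps25*∆.

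Pipas_chr4_0003 behaved otherwise. It was low in wt, at 0.748 to 2.03 CPM in RNC-mRNA, and higher in every library of every deletion strain at every time, with medians of 13.5 CPM in *rpl38*∆ and 17.7 in *rpl9a*∆, and of 49.3 and 34.5 in *rps7*∆ and *rps25*∆. The log2 fold changes in this order were 2.48 ± 0.24, 3.12 ± 0.23, 4.26 ± 0.22 and 3.99 ± 0.22 (SE), with edgeR adjusted p of 7.56e-08, 4.22e-09, 2.02e-12 and 1.92e-11. Of the first 10 members it had the smallest standard errors, though its wt level rests on 12, 19, 4, 4, 8 and 2 reads in the RNC-mRNA libraries.

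**Figure D5:**
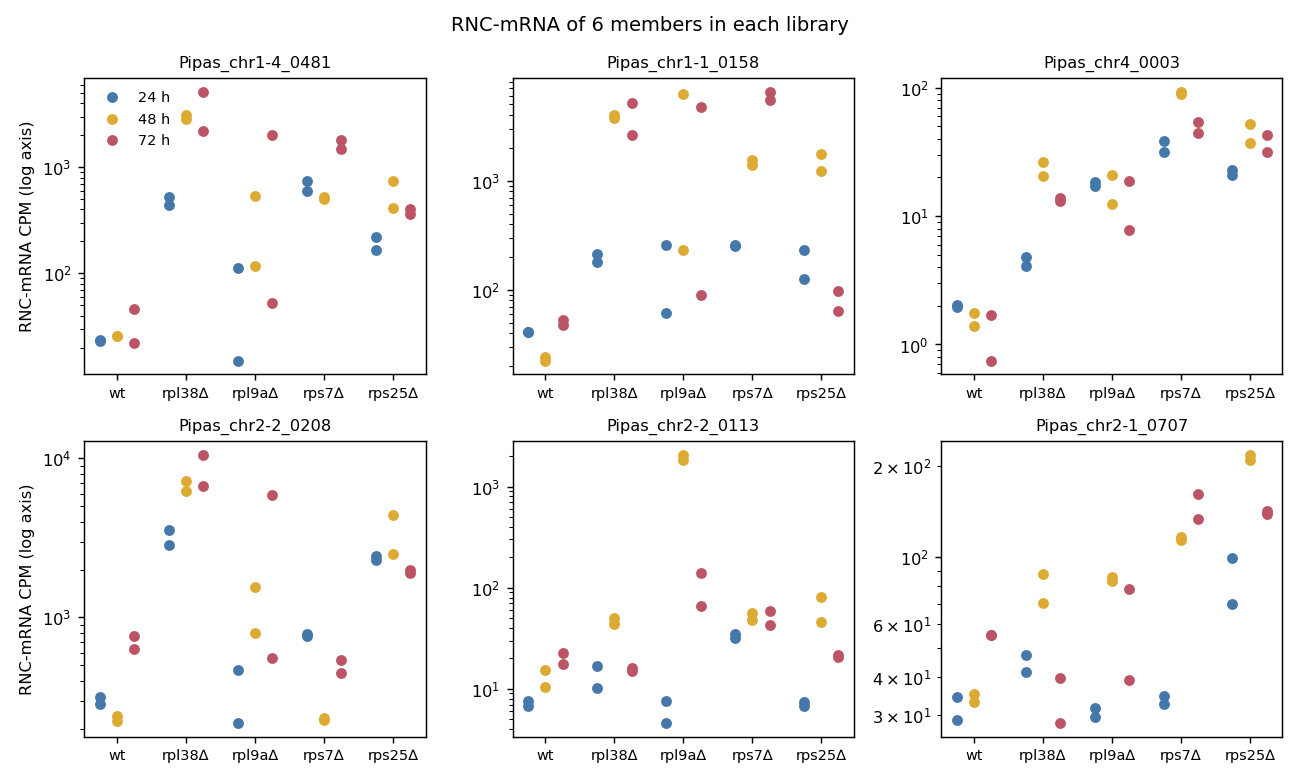
RNC-mRNA CPM (log y axis) of 6 members in each of the 30 libraries, by strain, with a point per library coloured by time. Pipas_chr4_0003 lies above wt in all 24 deletion strain libraries, Pipas_chr2-2_0113 is high in *rpl9a*∆ at 48 h only (1822 and 2075 CPM), and Pipas_chr2-2_0208 in *rps7*∆ overlaps wt.

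Pipas_chr4_0627 took the most reads of the 93 members by length, with a mean of 4606 RPKM over the 30 mRNA libraries. Its RNC-mRNA was at 386 to 1203 CPM in wt and 8560 to 12708 in *rpl38*∆, with a log2 fold change of 3.53 ± 0.32 (SE). In *rps7*∆ it had 695 and 659 CPM at 48 h, within the wt range, but 3797 and 3817 at 24 h, and the log2 fold change was 0.74 ± 0.30 (edgeR adjusted p = 0.0344), which 9 of the alternative fits did not call. Pipas_chr4_0183 had 64.9 to 115 CPM in wt RNC-mRNA. In *rpl38*∆ it went from 831 and 878 CPM at 24 h to 11424 and 2871 at 72 h, with a log2 fold change of 5.15 ± 0.51, whereas in *rps7*∆ it stayed between 243 and 713 CPM, with 1.63 ± 0.44.

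Of the other members among the first 10, Pipas_chr1-1_0418 was highest in *rps7*∆ at 72 h, with 1520 and 1383 CPM in RNC-mRNA, against 2.75 and 0.748 in wt at that time. Pipas_chr4_0352, Pipas_chr4_0268, Pipas_chr3_1068 and Pipas_chr2-2_0403 had their highest median in *rpl38*∆, at 1369, 371, 1052 and 780 CPM, against 36.0, 2.55, 42.0 and 17.7 in wt. Their log2 fold changes in *rpl38*∆ were 3.63, 5.27, 4.15 and 4.89. In *rps25*∆ they were 1.55, 2.25, 2.65 and 1.36.

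By read number, Pipas_chr2-1_0853 and Pipas_chr2-1_0767 were the leading members, with means of 4335 and 2299 CPM in mRNA. Pipas_chr2-1_0853 already had 385 to 2303 CPM in wt RNC-mRNA. It rose in *rpl38*∆ (log2 fold change 1.68 ± 0.31 SE, edgeR adjusted p = 0.000135) and in *rpl9a*∆ (0.84 ± 0.31, edgeR adjusted p = 0.0471), and the second call was lost in 30 alternative fits and turned to -0.15 without both *rpl9a*∆ libraries at 72 h. In *rps7*∆ its change was -0.25 ± 0.31 with TMM, and 0.55 with the library size alone. Pipas_chr2-1_0767 was highest in *rps7*∆ at 72 h, at 8930 and 6504 CPM, and rose in *rpl38*∆ (1.65 ± 0.27), *rpl9a*∆ (1.45 ± 0.27) and *rps7*∆ (1.45 ± 0.27), while in *rps25*∆ it had 0.28 ± 0.27.

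The 5 members with the highest mean fold change in RNC-mRNA over the strains were 4 of the first 10 and Pipas_chr2-1_0098, ranked 63. That gene had 4, 0, 0, 0, 5 and 2 reads in the 6 wt libraries of RNC-mRNA, so its fitted changes of 3.32 to 3.78 depend on how reads near 0 are treated. The 5 lowest were Pipas_chr1-4_0002, Pipas_chr2-1_0244, Pipas_chr2-1_0331, Pipas_chr2-1_0707 and Pipas_chr2-1_0693. Pipas_chr1-4_0002 had 44.9, 66.0 and 95.4 CPM in wt and 80.8 to 108 in *rps25*∆, with changes of 0.12, 0.32, 0.27 and 0.13 in *rpl38*∆, *rpl9a*∆, *rps7*∆ and *rps25*∆. Pipas_chr2-1_0331 rose by 0.36 to 0.77 in all 4 strains. Pipas_chr2-1_0707 rose in *rps25*∆, where it had 69.9 to 218 CPM against 29.0 to 55.4 in wt (1.43 ± 0.16 SE, edgeR adjusted p = 3.41e-07), and had 0.02 ± 0.16 in *rpl38*∆. Pipas_chr2-1_0244 rose in *rps25*∆ too (0.88 ± 0.24). Pipas_chr2-1_0693 rose in *rpl9a*∆ (1.37 ± 0.36) and *rps7*∆ (1.94 ± 0.33), with highest values of 44.0 and 48.7 CPM at 48 h. Its fitted changes were below 0 in *rpl38*∆ (-0.69 ± 0.51) and *rps25*∆ (-0.25 ± 0.51), where it was not called. In *rpl38*∆ at 72 h it had 0.152 and 0 CPM.

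Between deletion strains, by the test of the difference, more members were higher in *rpl38*∆ than were lower in it. In RNC-mRNA 57 members were higher and 7 lower in *rpl38*∆ than in *rpl9a*∆, against 17.7 and 24.2% of all genes. Against *rps25*∆ 67 were higher and 7 lower, where 24.2 and 28.4% of all genes were, and against *rps7*∆ 49 and 20, where 27.3 and 27.4% were. In *rps7*∆ 37 were higher and 18 lower than in *rps25*∆, against 23.5 and 28.7%. Between *rpl9a*∆ and *rps7*∆ 19 were higher and 29 lower, against 29.1 and 24.1%, and between *rpl9a*∆ and *rps25*∆ 14 and 17, against 15.7 and 15.1%, which is near the background. Without the *rpl9a*∆ library that stood apart, more members differed between *rpl9a*∆ and *rps25*∆. The share of all genes in that fit is not given, so this rise was not set against the background. Since *rpl9a*∆ and *rps25*∆ most often gave the smallest average of the rule, the choice of members bears on these orders.

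Single members differed widely between strains. Pipas_chr2-2_0208 had 2852, 6460 and 10569 CPM (lowest, median, highest) in *rpl38*∆, 1889, 2366 and 4381 in *rps25*∆ and 227, 495 and 786 in *rps7*∆, against 224, 301 and 768 in wt. It was higher in *rpl38*∆ than in *rps7*∆ by 4.15 ± 0.37 (log2, SE, edgeR adjusted p = 1.31e-08) and differed by -2.93 ± 0.35 between *rps7*∆ and *rps25*∆. In *rps7*∆ its change against wt was -0.51 ± 0.33 with TMM and 0.29 with the library size alone. Pipas_chr2-2_0403 was higher in *rpl38*∆ than in *rps25*∆ by 3.53 ± 0.48, and Pipas_chr3_0023 higher in *rpl38*∆ than in *rpl9a*∆ by 2.95 ± 0.47, with medians of 656 and 24.4 CPM. Pipas_chr2-2_0113 had 7.67 and 4.56 CPM in *rpl9a*∆ at 24 h, 1822 and 2075 at 48 h and 65.6 and 139 at 72 h. In the other strains it never exceeded 80.7 CPM, and the difference from *rps25*∆ was 2.57 ± 0.23. Pipas_chr1-3_0269 was at 17.6 and 20.7 CPM in *rpl9a*∆ at 24 h, below the 175 and 148 of wt, and at 396 to 1502 in *rps7*∆, a difference of -2.20 ± 0.31 between *rpl9a*∆ and *rps7*∆.

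In wt itself the members did not move as a group with time. Between 24 and 72 h 9 rose and 7 fell in RNC-mRNA, close to the 7.01 and 5.84% of all genes, with a median log2 change of 0.01. Pipas_chr4_0832 rose from 43.2 and 42.8 CPM at 24 h to 377 and 339 at 72 h (log2 change 2.97, edgeR adjusted p = 1.87e-05). Pipas_chr4_0914 went from 15.9 and 18.3 to 82.0 and 131 CPM (2.56, edgeR adjusted p = 9.57e-05). At 24 h both were higher in all deletion strain libraries than in wt, from 202 and from 54.0 CPM. Pipas_chr1-1_0418 fell from 19.0 and 18.3 to 2.75 and 0.748 CPM (-3.34, edgeR adjusted p = 0.0168). The values at 72 h rest on 13 and 2 reads, and alternative fits gave -4.62 to -2.91. Pipas_chr1-4_0538 went from 419 and 401 to 67.6 and 77.8 CPM (-2.58, edgeR adjusted p = 0.00587). The number of members that changed was 6 to 32 when single libraries were left out. It was 7 without either wt library of 24 h, 10 and 6 without the wt libraries of 72 h, and 32 without either *rpl9a*∆ library of 72 h. With the wt libraries fitted alone it was 40.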

How the data were processed

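The authors selected polyA+ RNA from total RNA and from RNCs pelleted through sucrose, and made libraries with the NEBNext Ultra II kit. Software named in the submitters' processing notes is bcl2fastq 2.17, and the sources used here name no aligner, counting tool or genome build. For each library the authors deposited raw read counts of 5319 host genes, which is the basis of all results, and an RPKM, which was recomputed and differed by at most 0.000117%. For 451 genes listed more than once the length is that of a single segment, and they were left out of values per length. The separate Phy table was not used. No per-sample column was left out otherwise.

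The members and all lists were chosen with earlier results of these data known. Counts of the 30 RNC-mRNA libraries were fitted with edgeR 4.0.16 (R 4.3.3), with TMM scaling, 1 mean per group and 15 residual degrees of freedom, for 5209 genes; 110 genes that did not exceed 10 reads in 2 libraries or more were removed. All 100 members passed. The biological coefficient of variation was 20.9%. P-values were adjusted by Benjamini-Hochberg over all genes tested, at 0.05. The standard errors given with edgeR fold changes were derived from the test, as the absolute log2 fold change divided by the square root of its F statistic. Alternatives were library size alone, DESeq2 1.42.0 size factors and Wald test, other read filters, the compared groups alone, the replicate number as a block and each library left out; after seeing the data, both *rpl9a*∆ RNC-mRNA libraries at 72 h were left out as well. Scripts were tested on simulated data. Named were the first 10 members, the 5 highest and 5 lowest by mean RNC-mRNA change, the 3 highest by CPM and by RPKM, the 2 largest rises and falls in wt, members and genes at the edge, and the member with the largest difference for each pair of strains. Replicates were biological duplicates by the study's methods, and all pairs differed by more than sampling noise.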

Additional observations from a re-analysis of the deposited data

Results flagged for a closer look

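For each pair of deletion strains, the member with the largest RNC-mRNA difference past the threshold was looked at again, because its change against the same wt libraries differed between the strains by the edgeR test of the difference. These were Pipas_chr3_0023, by 2.95 (log2) between *rpl38*∆ and *rpl9a*∆, Pipas_chr2-2_0208, by 4.15 between *rpl38*∆ and *rps7*∆ and by -2.93 between *rps7*∆ and *rps25*∆, Pipas_chr2-2_0403, by 3.53 between *rpl38*∆ and *rps25*∆, Pipas_chr1-3_0269, by -2.20 between *rpl9a*∆ and *rps7*∆, and Pipas_chr2-2_0113, by 2.57 between *rpl9a*∆ and *rps25*∆. Each was picked as the largest of 100 members, so its size is a description.

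The genes that the rule left out showed signal in the deletion strains. Pipas_c157_0001 had 0.663 to 3.06 CPM in the 6 wt mRNA libraries and 183 to 942, median 567, in the 24 mRNA libraries of the deletion strains. Pipas_c157_0002 had 0.166 to 0.240 CPM in wt and 21.7 to 775, median 102.9, in the deletion strains. In RNC-mRNA they had at most 6.36 and 1.87 CPM in wt and at least 279 and 15.9 in the deletion strains.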

How the results depend on the processing

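The members called higher in RNC-mRNA on the mean of the 3 times stayed within 1.5 times of 93, 74, 77 and 66 under every alternative, except *rpl9a*∆ with the compared groups alone (47). That setting, which has fewer libraries to estimate the spread from, also gave 48, 10 and 0 for *rpl9a*∆ at 24, 48 and 72 h, 70 for *rps7*∆ at 48 h, 40 for the change of wt with time, 36 for *rpl38*∆ against *rpl9a*∆ and 12 for *rpl9a*∆ against *rps25*∆. Library size alone gave 85 for *rps7*∆ at 48 h and 74 for all 4 strains. Leaving out both *rpl9a*∆ libraries of 72 h gave 32 for wt with time. In *rps7*∆ 1 member was lower on the mean of the times with the compared groups alone and without either or both of these libraries. Leaving out single libraries gave 64 to 87 members in *rpl9a*∆ on the mean of the times, 15 to 33, 26 to 68 and 21 to 65 at its 3 times, 40 to 72 and 19 to 42 in *rps25*∆ at 48 and 72 h, 6 to 32 for wt with time, 22 to 52 for *rpl9a*∆ against *rps25*∆, 41 to 60 for all 4 strains and 84 to 100 members kept by the rule. Other pseudocounts, filters and TMM scaling of the mRNA kept 71 to 100. On the mean of the times, the share of all genes called higher rose with the library size alone. In *rpl9a*∆ it also rose without either of its libraries of 72 h. The causes were not tested.

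Of 112 fold changes of named members against wt, 9 changed sign under an alternative. Without single libraries Pipas_chr2-1_0707 in *rpl38*∆ ran from -0.11 to 0.10, Pipas_chr2-1_0693 in *rps25*∆ from -1.22 to 0.066, and 4 members in *rpl9a*∆ did so, Pipas_chr2-1_0244 from -0.14 to 0.42, Pipas_chr1-4_0538 from -0.13 to 1.02, Pipas_chr2-1_0467 from -0.18 to 0.49 and Pipas_chr1-3_0269 from -0.35 to 0.31. Without both *rpl9a*∆ libraries of 72 h Pipas_chr2-1_0853, Pipas_chr1-4_0538 and Pipas_chr1-3_0269 had -0.15, -0.52 and -0.55 in *rpl9a*∆. With library size alone Pipas_chr2-1_0693 had 0.10 in *rps25*∆, and Pipas_chr2-1_0853 and Pipas_chr2-2_0208 had 0.55 and 0.29 in *rps7*∆.

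Same-numbered replicates did not deviate together (correlations of -0.16 to 0.12, over 0.1 in 1 of 12). With the replicate number as a block the counts were 93, 73, 77 and 64 on the mean of the times and 46 in all 4 strains, all 24 counts stayed within 1.5 times, and 2 of 122 fold changes of named members lost their call, the 122 including 6 differences between strains and 4 changes of wt with time.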
